A study of Mus musculus with 5 samples.

Results

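The ligands, receptors and readout of the TGF-beta and activin pathway were followed in the mouse retina through 10 genes: the ligand genes Tgfb1, Tgfb2 and Tgfb3, the ligand-binding protein Ltbp1, the activin subunit genes Inhba and Inhbb, the receptor genes Tgfbr1, Tgfbr2 and Tgfbr3, and the TGF-beta-induced gene Tgfbi. The genes were chosen by name, with earlier results of these data known. Each had 1 row in a table of 33636 genes, and all 10 passed the count filter (more than 10 counts in at least 2 libraries) that left 17432 genes for testing.

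Form-deprivation myopia (FDM) was induced in male wild-type C57BL6/J mice by holding a diffuser in front of the right eye for 2 weeks, up to postnatal day 42, and the uncovered left eye was the control. Retinal polyA RNA was sequenced in 2 FDM and 3 control libraries, 1 eye each, all of the same age, sex and strain. By the numbers of the count table and the study's supplement, libraries numbered 1 were the eyes of one animal and those numbered 3 the eyes of another (the labels number FDM 3 as 2), whereas Control 2 stood alone after the study removed an FDM library with many duplicated reads. Treatment and side of the body cannot be told apart, since the covered eye was the right one in each animal.

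TGF-beta is made as a precursor and secreted as a latent complex, in which its own propeptide is linked to a latent TGF-beta-binding protein that anchors it in the extracellular matrix. Once released, the dimer is bound by the type II receptor TGFBR2, which recruits and phosphorylates the type I receptor TGFBR1, and TGFBR1 in turn phosphorylates the transcription factors SMAD2 and SMAD3. Activins are dimers of inhibin beta subunits, act through activin receptors on the same SMADs, and are held back by follistatin. In the eye, TGF-beta is studied in the remodelling of the sclera during myopia and as a factor made by the retinal pigment epithelium (RPE), the pigmented layer behind the photoreceptors.

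Of the 10 genes, Tgfbi alone passed the unadjusted threshold of 0.05 between FDM and control eyes in the test across all 5 libraries. It was 2.35-fold lower in FDM (log2 fold change -1.23, SE 0.30, edgeR quasi-likelihood test, unadjusted p = 0.00410). The ligand genes Tgfb2 and Tgfb3, the receptor gene Tgfbr2 and the activin subunit gene Inhba had log2 fold changes between -0.02 and 0.08, with an SE of 0.12 or less. Ltbp1, Inhbb and Tgfbr3 had lower means in FDM, with log2 fold changes of -0.38, -0.33 and -0.36, but their control libraries were spread and none passed the threshold. The background to this count of 1 of 10 genes was 281 of 17432 genes under the threshold in either direction (1.61%), of which 202 were lower in FDM (1.16%). After Benjamini-Hochberg adjustment in edgeR no gene was called (0.0%), and the adjusted p of Tgfbi was 1.0. DESeq2 called 172 genes unadjusted and 3 after adjustment.

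The libraries held 40599047 to 56534931 counts, so that 3 counts stood for 0.0531 to 0.0739 CPM (the count scaled to a common library size). Retinal markers were high throughout, with a summed 35555 to 44423 CPM over 8 genes and none at 0. Libraries also differed in markers of neighbouring tissue. The sum over 9 RPE markers was 65.5 CPM in FDM 1, 60.5 in FDM 3 and 65.9 in Control 1, against 224 in Control 2 and 270 in Control 3. The order of Control 2 and Control 3 differed between these markers. Dct (18.7 CPM in Control 2, 76.9 in Control 3), Tyrp1, Pmel and Best1 were higher in Control 3. Rpe65 (27.9 CPM in Control 2, 23.6 in Control 3), Lrat, Ttr, Kcnj13 and Rdh5 were higher in Control 2. Lens markers reached 1962 CPM in FDM 3, and muscle markers 56.6 CPM in Control 3. Sums for endothelium, pericytes, microglia and fibroblasts ranged from 213 to 259, 97.8 to 110, 51.5 to 60.1 and 114 to 129 CPM. The fibroblast sum was mostly Col6a1 (78.8 to 96.5 CPM), and its members Dcn (7 and 44 counts in FDM 1 and FDM 3; 26, 54 and 216 in Control 1, 2 and 3) and Lum (0 and 8; 7, 5 and 28) did not follow it. In such bulk samples, fewer cells of a type and less RNA per cell cannot be told apart.

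Levels of different genes were compared as CPM per kilobase of merged annotated exons. Tgfb2 had the highest mean of the 10 genes at 12.4 CPM per kb, which placed it above 76.4% of the genes tested. Tgfb3 followed at 7.85 and Tgfbr1 at 4.47 CPM per kb. For these top genes the lowest library of each lay above the highest library of the next, and all Tgfbr1 libraries lay above those of Ltbp1. Ltbp1 (1.34), Tgfbr2 (1.1), Inhba (1.05), Tgfbr3 (1.05) and Inhbb (0.977 CPM per kb) overlapped from neighbour to neighbour and could not be ordered. Tgfb1 lay below all of them at 0.646 and Tgfbi last at 0.245 CPM per kb, above 9.84% of the genes tested. The positions of Tgfb1 and Ltbp1 depended on the gene model. With the longest transcript in place of the merged exons, a choice added after the values were seen, the mean of Tgfb1 was 1.27 CPM per kb and it ranked 5 of 10. The longest transcript of Tgfb1 is annotated as a retained intron (2573 bases), while its coding transcript has 2175 bases. Ltbp1 moved likewise, to 2.15 CPM per kb, and its lowest library (1.69) then lay above the highest library of each gene ranked below it.

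**Figure D1:**
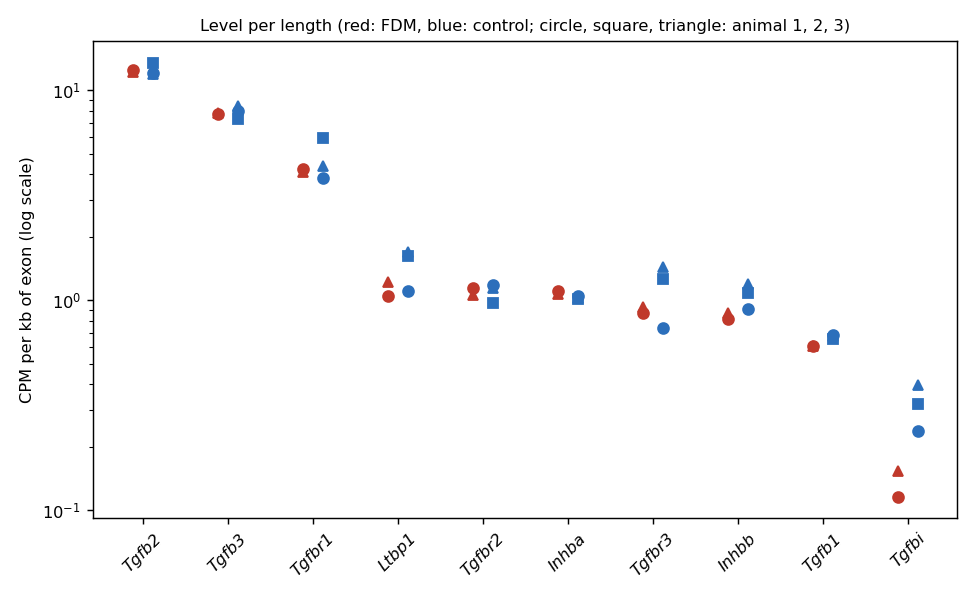
Level of each gene in each library, in CPM per kb of merged exon on a log scale, with FDM libraries in red, control libraries in blue and the marker shape giving the animal. Tgfb2, Tgfb3 and Tgfbr1 formed separate steps at the top, the next 5 genes overlapped, and for Tgfbi, the lowest, the red points lay below the blue ones.

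Tgfbi encodes a secreted extracellular matrix protein, also known as keratoepithelin, which binds collagens and integrins and takes its name from its induction by TGF-beta. The gene lies at chr13:56609523-56639562 on the plus strand (GRCm38). Its promoter sequence is shown because Tgfbi was the gene that passed and because a SMAD-binding half-site is the letter pattern through which SMAD3 and SMAD4 can contact DNA. The 250 bases before the RefSeq start, at chr13:56609336-56609585 (GRCm38.p6, plus strand), read as follows, with each CAGAC or its reverse complement GTCTG in capitals.
Tgfbi: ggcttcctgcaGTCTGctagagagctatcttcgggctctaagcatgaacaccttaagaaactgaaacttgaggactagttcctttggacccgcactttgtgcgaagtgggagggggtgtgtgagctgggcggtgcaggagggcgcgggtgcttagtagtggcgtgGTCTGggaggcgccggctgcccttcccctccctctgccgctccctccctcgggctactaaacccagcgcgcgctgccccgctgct
The pattern occurred 2 times in this window, and at least 1 time in 42.2% of 32851 windows of the same length over all RefSeq starts. The share of windows with 2 or more was not counted. The GGGCGG box bound by Sp1 occurred 1 time (32.7% of windows) and the AP-1 pattern TGANTCA did not occur (6.75% of windows), both strands searched. Such matches describe letters in a window and are not bound sites.

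Tgfbi was counted 19 and 28 times in FDM 1 and FDM 3, and 36, 69 and 71 times in Control 1, 2 and 3. These were 0.438 and 0.582 CPM in FDM and 0.902, 1.21 and 1.5 CPM in the control eyes, with means of 0.510 ± 0.102 (SD, n = 2) and 1.2 ± 0.297 (SD, n = 3). Both FDM libraries lay below every control library, and Control 1 was the lowest control. The edgeR 95% interval of the log2 fold change ran from -1.94 to -0.53. Within animals, the FDM eye was 2.06-fold lower than its partner in animal 1 (log2 ratio -1.04, 95% interval -1.92 to -0.20) and 2.57-fold lower in animal 3 (-1.36, -2.05 to -0.71). These intervals are exact and conditional on the summed counts, and they cover counting error only. With the animal as a block in edgeR the log2 fold change was -1.22 (unadjusted p = 0.00160, adjusted p = 0.258). Leaving out 1 library at a time gave -1.46 to -1.05, with unadjusted edgeR p from 0.00142 to 0.0305.

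The RPE markers moved with the control libraries in which Tgfbi was highest. All 9 of them were higher in Control 2 and Control 3 than in the other 3 libraries, none was at 0 in any library, and 5 of 9 were called lower in FDM. Tgfbi showed the same arrangement, as did Ltbp1, Inhbb, Tgfbr1 and Tgfbr3. This arrangement of Control 2 and Control 3 above the rest held for 2676 of the 17432 genes tested (15.4%). In animal 1 the summed RPE markers of the 2 eyes were close (log2 ratio -0.01), and there the Tgfbi count was 19 in the FDM eye and 36 in the control eye. Single markers differed in that animal as well, in both directions. The RPE marker Kcnj13 (26 against 46 counts) and the fibroblast markers Dcn (7 against 26) and Lum (0 against 7) were lower in the FDM eye, as was Tgfbi. The RPE markers Pmel (133 against 68 counts) and Tyrp1 (126 against 86) were higher in the FDM eye. In CPM, Dct, Rpe65 and Best1 were also higher there, and Lrat, Ttr and Rdh5 were lower. Dcn and Lum were also lower in the FDM eye of animal 3, and with the animal as a block Dcn had a log2 fold change of -2.24 (edgeR adjusted p = 0.00582). Without a block Dcn was at -1.90 (edgeR unadjusted p = 0.0914). Control 2, the partner of FDM 3 by label number, had 0.947 CPM of Dcn, close to FDM 3 at 0.915 CPM. The part of these markers in the Tgfbi value was not tested. In animal 3 the RPE sum differed by a log2 ratio of -2.16. The part of the RPE markers in the values of these 5 genes in animal 3 was not tested.

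**Figure D2:**
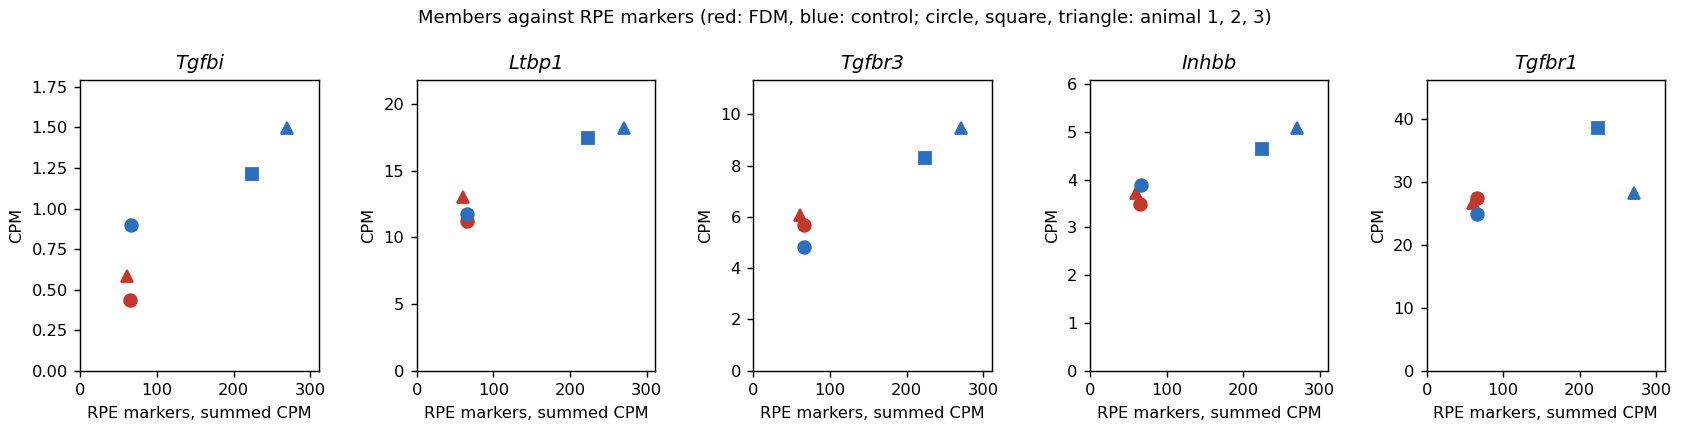
CPM of Tgfbi, Ltbp1, Tgfbr3, Inhbb and Tgfbr1 (vertical axes) against the summed CPM of 9 RPE markers (horizontal axis) in the 5 libraries, with FDM in red, control in blue and the marker shape giving the animal. Control 2 and Control 3 lay at 224 and 270 CPM of RPE markers and above the other libraries in each panel, although for Tgfbr1 Control 3 (28.4 CPM) was close to FDM 1 (27.5 CPM). Among the 3 libraries at 60.5 to 65.9 CPM, the blue Control 1 point stood above both red points for Tgfbi and Inhbb and below both for Tgfbr3 and Tgfbr1.

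The TGF-beta ligand genes differed little between the eyes. Tgfb2, whose product is the predominant TGF-beta isoform of the eye, lies at chr1:186622792-186705989 on the minus strand. It had 72.4 and 70.6 CPM in FDM 1 and FDM 3 and 69.8, 78.1 and 69.5 CPM in Control 1, 2 and 3. Both FDM values lay inside the control range, and the log2 fold change was -0.02 (95% interval -0.23 to 0.19, edgeR unadjusted p = 0.833). The window before the Tgfb2 start (chr1:186705990-186706239, minus strand, GRCm38.p6) is shown because this most abundant ligand gene also had 2 half-sites, again in capitals.
Tgfb2: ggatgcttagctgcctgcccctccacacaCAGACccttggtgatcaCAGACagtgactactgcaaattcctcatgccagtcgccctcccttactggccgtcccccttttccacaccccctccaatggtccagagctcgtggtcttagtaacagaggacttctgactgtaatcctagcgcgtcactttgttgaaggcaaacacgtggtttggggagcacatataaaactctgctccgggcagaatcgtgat

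Tgfb3 lies at chr12:86056745-86079041 on the minus strand and encodes an isoform that signals through the same receptors. It had 26.2 and 26.3 CPM in the FDM libraries and 27.1, 24.8 and 28.4 CPM in the controls. The groups overlapped, with a log2 fold change of -0.02 (95% interval -0.23 to 0.18, edgeR unadjusted p = 0.784). Of the 50-base stretches of its exons, 8.79% also occur in other annotated genes, mainly the overlapping models Gm48008 and Gm37804, so that its count is less certain than those of genes with unique sequence.

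Tgfb1, at chr7:25687002-25705077 on the plus strand, encodes the isoform best known from immune regulation and fibrosis. It had the lowest level per kb of the TGF-beta ligand genes and was at 3.07 and 3.06 CPM in FDM and 3.43, 3.32 and 3.41 CPM in control eyes. The FDM libraries lay below all controls, by a narrow margin, and the log2 ratio was -0.16 in both animals. With 133 to 189 counts per library the intervals of both ratios included 0, and the edgeR log2 fold change was -0.14 (SE 0.14, unadjusted p = 0.328).

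Ltbp1 encodes latent TGF-beta-binding protein 1, which holds the latent ligand in the matrix. It had 11.3 and 13.1 CPM in FDM 1 and FDM 3 and 11.8, 17.5 and 18.2 CPM in Control 1, 2 and 3. Control 1 lay between the FDM libraries, so the groups overlapped, and the means were 12.2 ± 1.27 (SD, n = 2) and 15.8 ± 3.50 CPM (SD, n = 3). The log2 fold change was -0.38 (SE 0.19, edgeR unadjusted p = 0.0872). In animal 1 the eyes had similar values (log2 ratio -0.07, interval -0.25 to 0.12), whereas in animal 3 the FDM eye was lower (-0.48, -0.63 to -0.33). With the animal as a block, Ltbp1 passed the unadjusted threshold in edgeR at a log2 fold change of -0.29 (unadjusted p = 0.0199, adjusted p = 0.619). That fit leaves 1 residual degree of freedom and called 1261 genes (7.23%), among them 2 of the 10 genes, Tgfbi and Ltbp1. With the block by label number instead, Ltbp1 was at -0.25 (edgeR unadjusted p = 0.0916) and did not pass.

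Ltbp1 also stood out in the deposited normalization, which carries a factor for each gene and library. Relative to the median gene of the library, its factor was 0.856 and 1.01 in FDM 1 and FDM 3 and 0.870, 1.14 and 1.17 in Control 1, 2 and 3. The log2 range of 0.45 over libraries exceeded that of 94.8% of the genes tested, while the other 9 genes had ranges of 0.02 to 0.09. The normalized counts of Ltbp1 were 618 and 609 in FDM 1 and FDM 3 and 629, 717 and 731 in the controls. EdgeR with these factors gave a log2 fold change of -0.18 (SE 0.11, unadjusted p = 0.150). With the normalized counts the log2 ratio within animals was -0.02 in animal 1 and -0.26 in animal 3. The fits with a block and those without a single library did not use these factors. The gene, at chr17:75005568-75392512 on the plus strand, has 10 annotated transcripts, of which 6 are protein coding. The coding transcripts start at several positions, some of which are shared. The long form Ltbp1-201 (6671 bases) begins at position 75005568 and the short form Ltbp1-203 (5140 bases) at 75178810. The deposited gene counts do not separate these transcripts.

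The windows before both RefSeq starts are shown because they belong to the long and the short form, again with CAGAC or GTCTG in capitals. They lie at chr17:75005279-75005528 and chr17:75178531-75178780 (GRCm38.p6, plus strand).
Ltbp1 long form: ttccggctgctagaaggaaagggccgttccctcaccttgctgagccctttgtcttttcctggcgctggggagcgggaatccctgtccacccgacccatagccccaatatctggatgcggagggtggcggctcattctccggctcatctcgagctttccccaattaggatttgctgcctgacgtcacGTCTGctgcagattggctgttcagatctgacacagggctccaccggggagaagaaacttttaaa
Ltbp1 short form: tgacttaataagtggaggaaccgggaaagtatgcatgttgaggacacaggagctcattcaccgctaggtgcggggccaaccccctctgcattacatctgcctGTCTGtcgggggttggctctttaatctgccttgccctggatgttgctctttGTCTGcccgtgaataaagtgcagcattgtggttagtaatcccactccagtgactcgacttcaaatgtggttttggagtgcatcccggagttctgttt
The long-form window held 1 half-site and the short-form window 2. GC content was 56.8% in the first and 50.8% in the second. Of the 10 genes, 8 had an entry in the RefSeq promoter table, and the windows of Tgfb1, Inhba and Inhbb held no CAGAC, while Tgfb1 held 5 GGGCGG boxes.

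**Figure D3:**
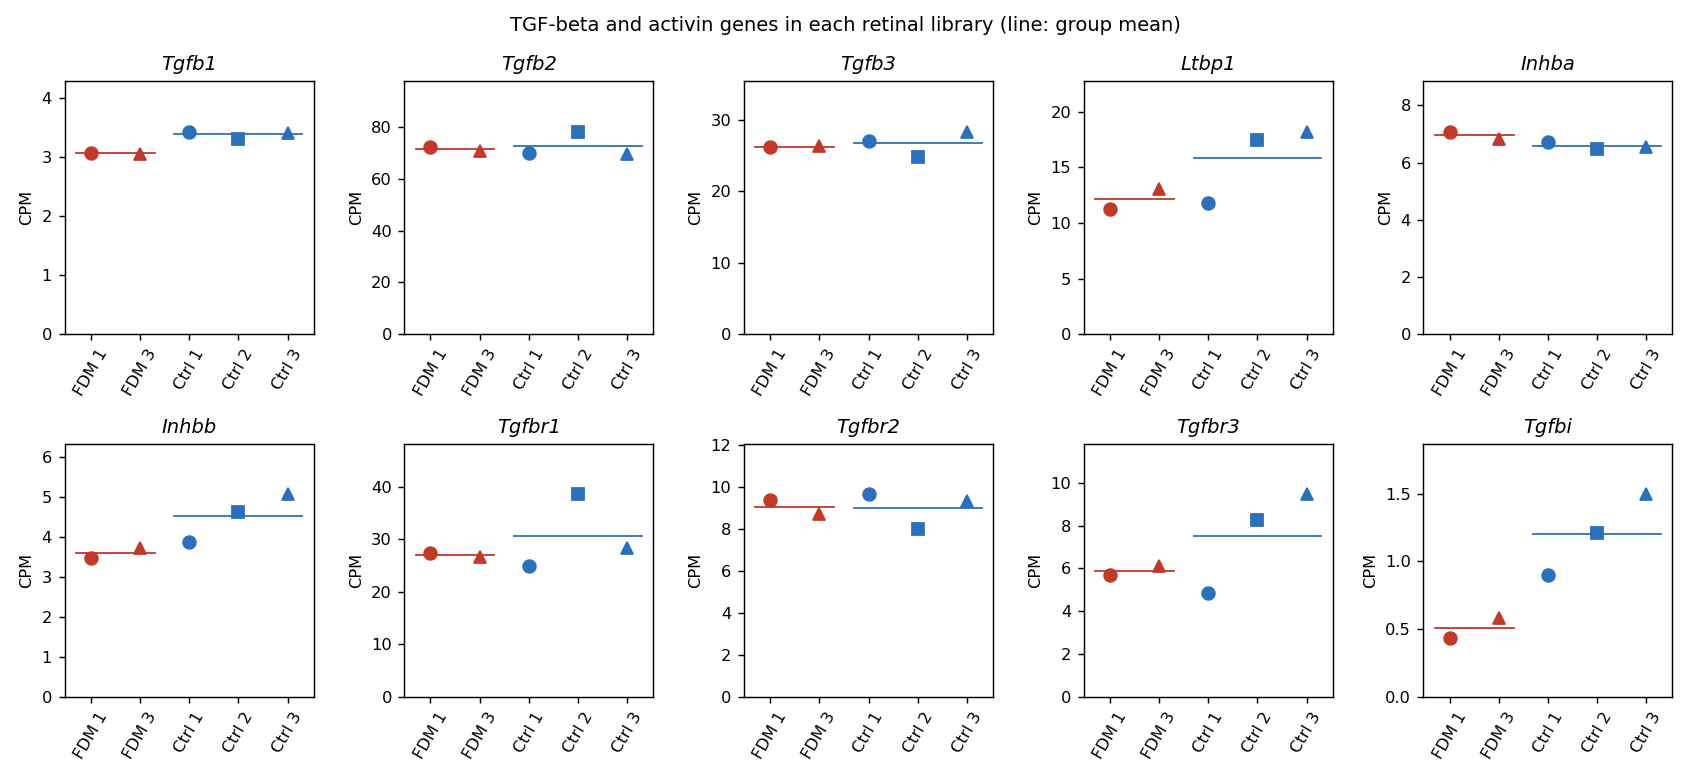
CPM of each of the 10 genes in the 5 libraries, each panel on its own axis from 0, with the group mean as a line, FDM in red, control in blue and the marker shape giving the animal. Both red points lay below all blue points for Tgfb1, Inhbb and Tgfbi and above them for Inhba. For Ltbp1 and Tgfbr3 the Control 1 point lay with the FDM libraries or below them.

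The activin subunit genes were expressed at similar levels per kb and had differences of opposite sign. Inhba, at chr13:16011851-16031621 on the plus strand, encodes the beta A subunit of activin A. It had 7.08 and 6.82 CPM in FDM and 6.71, 6.47 and 6.55 CPM in control eyes. Both FDM libraries lay above all controls, as they did for 692 of the genes tested (3.97%), but the difference was small at a log2 fold change of 0.08 (SE 0.11, edgeR unadjusted p = 0.484).

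Inhbb, at chr1:119415465-119422248 on the minus strand, encodes the beta B subunit of activin B. Its values were 3.48 and 3.72 CPM in FDM 1 and FDM 3 and 3.88, 4.63 and 5.08 CPM in Control 1, 2 and 3. The groups did not overlap, although FDM 3 and Control 1 were close, and the log2 fold change was -0.33 (SE 0.16, edgeR unadjusted p = 0.0744). Within animals the log2 ratio was -0.16 (interval -0.49 to 0.18) in animal 1 and -0.45 (-0.73 to -0.16) in animal 3. Both FDM libraries below all controls was an arrangement of 1163 genes tested (6.67%), and of 3 of the 10 genes, Tgfb1, Inhbb and Tgfbi.

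Among the receptors, Tgfbr2 was the steadiest. This gene at chr9:116084293-116175360 on the minus strand encodes the receptor that binds the ligand first, and had 9.37 and 8.69 CPM in FDM and 9.64, 7.98 and 9.33 CPM in control eyes. The FDM values lay within the control range (log2 fold change 0.01, 95% interval -0.28 to 0.30, edgeR unadjusted p = 0.949). Tgfbr1, at chr4:47353222-47414931 on the plus strand, encodes the signalling kinase and had 27.5 and 26.7 CPM in FDM and 25.0, 38.6 and 28.4 CPM in control eyes. Control 2 was far above the other 4 libraries, which lay between 25.0 and 28.4 CPM. The log2 fold change was -0.18 (SE 0.17, edgeR unadjusted p = 0.336) and lay between -0.30 and 0.03 over fits that omitted a single library. Its within-animal log2 ratios had opposite signs, 0.14 (0.02 to 0.26) in animal 1 and -0.09 (-0.20 to 0.03) in animal 3.

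Tgfbr3 encodes betaglycan, a membrane proteoglycan that presents TGF-beta 2 to the signalling receptors and binds inhibins. The gene lies at chr5:107106570-107289629 on the minus strand, and it had 5.70 and 6.09 CPM in FDM 1 and FDM 3 and 4.83, 8.28 and 9.46 CPM in Control 1, 2 and 3. Control 1 was the lowest of all 5 libraries and Control 3 the highest, which gave the largest relative spread among controls of the 10 genes (coefficient of variation 31.9%). The log2 fold change was -0.36 (SE 0.26, edgeR unadjusted p = 0.216). It was -0.15 without Control 3 (unadjusted p = 0.583), -0.23 with the block by animal and -0.12 with the block by label number. The animals differed in sign, at 0.24 (-0.04 to 0.52) in animal 1 and -0.63 (-0.85 to -0.42) in animal 3. Without Control 1, the control library low in RPE markers, Tgfbr3 (log2 fold change -0.59, edgeR unadjusted p = 0.00260, adjusted p = 0.425), Ltbp1 (-0.55, unadjusted p = 0.00221, adjusted p = 0.395) and Inhbb (-0.43, unadjusted p = 0.0237, adjusted p = 0.829) all passed the unadjusted threshold. So did Tgfbi, which made 4 of the 10 genes, against 946 of 17353 genes in that fit (5.45%).

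**Figure D4:**
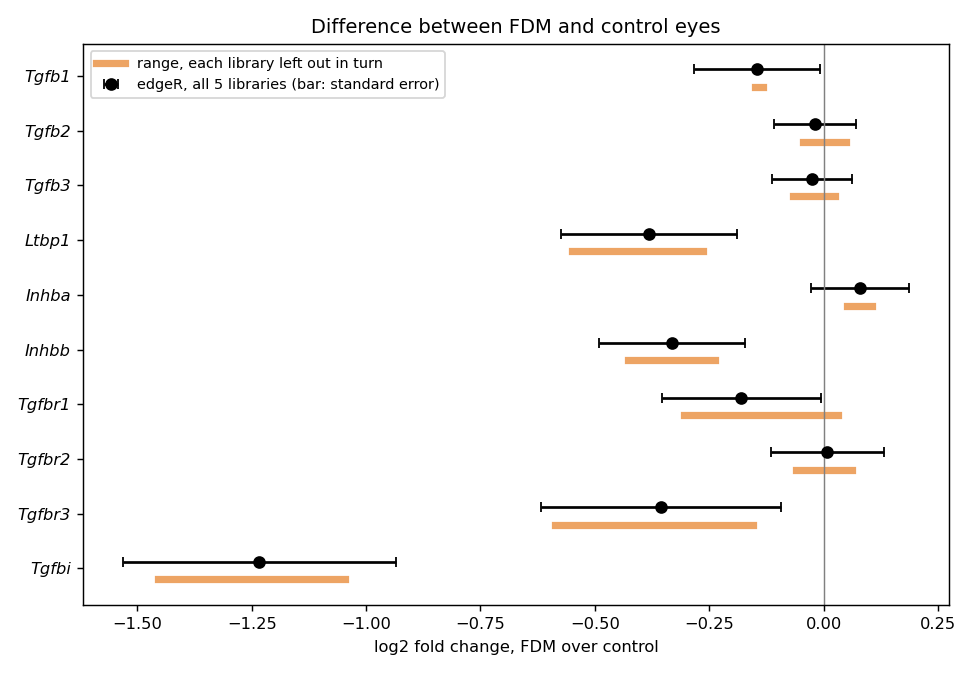
Log2 fold change of FDM over control for each gene from edgeR with all 5 libraries (black points, bars of 1 standard error) and the range over fits that omitted a single library (orange). Tgfbi lay at -1.23 with a range from -1.46 to -1.05, whereas the ranges of Tgfb2, Tgfb3, Tgfbr1 and Tgfbr2 crossed 0.

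Compared within animals, 6 of the 10 genes were lower in the FDM eye of both animals, namely Tgfb1, Tgfb3, Ltbp1, Inhbb, Tgfbr2 and Tgfbi. Over all genes tested this share was 30.3%. For Tgfbr2 in animal 1 the sign depended on scaling, as the ratio was above 0 with the deposited normalized counts. With FDM 3 set against Control 2, the pair that the label numbers give, 4 genes were lower in both pairs (Tgfb1, Ltbp1, Inhbb and Tgfbi), Tgfb3 was at 0.09 and Tgfbr2 at 0.12, and Tgfb2 turned to -0.15 (-0.21 to -0.08). In that pair Tgfbi was at -1.06 (-1.74 to -0.40). Tgfb2 and Inhba were higher in the FDM eye of both animals, as were 24.7% of the genes tested, and Tgfbr1 and Tgfbr3 had opposite signs in the 2 animals. In animal 1 the counting intervals excluded 0 for Tgfbi and for Tgfbr1 alone. In animal 3 they excluded 0 for Ltbp1, Inhbb, Tgfbr3 and Tgfbi. These intervals hold no variation between animals.

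**Figure D5:**
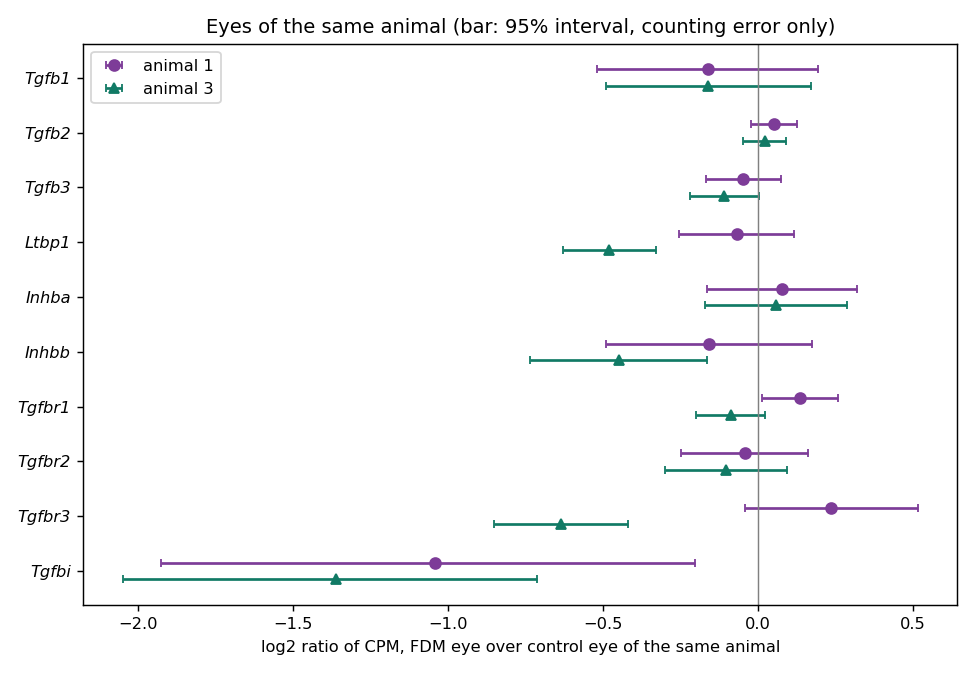
Log2 ratio of CPM, FDM eye over control eye, in animal 1 (circles) and animal 3 (triangles), with 95% intervals that cover counting error only. Both points of Tgfbi lay at or below -1.04, while for Ltbp1, Inhbb and Tgfbr3 the ratio of animal 3 was negative and that of animal 1 had an interval including 0.

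The rest of the pathway was described through 5 lists of 57 genes, of which 53 were tested. In all, 2 were called, both lower in FDM, where 1.61% of all genes tested were called in either direction and 1.16% lower. Of the list genes, 36 had a log2 fold change below 0 and 17 above, beside 9688 and 7744 over all genes tested. The median was -0.05, beside -0.01 over all genes tested. The count of 2 became 13 with the animal as a block and 14 without Control 1. Those fits called 7.23% and 5.45% of all genes in them. None of 12 genes of latency and activation was called in edgeR without a block. With the animal as a block, Ltbp2, a latent TGF-beta-binding protein family member named after its values were seen, was called at -0.96 on the log2 scale (adjusted p = 0.0315). It had 0.992 and 4.37 CPM in FDM 1 and FDM 3 and 2.03, 11.5 and 8.25 CPM in Control 1, 2 and 3. Without the block, the log2 fold changes of the list ran from -1.44 to 0.37 with a median of -0.29, and the most abundant were Ltbp3, a further latent TGF-beta-binding protein (0.10), and Itgav, the alpha V integrin that takes part in releasing the ligand (-0.28). None of the 7 further receptors and coreceptors tested was called, with a median of 0.01 and values of 0.02 for the activin receptor gene Acvr1b and -0.10 for Acvr2a. None of the 12 SMAD genes and SMAD regulators was called, with all values between -0.25 and 0.10. Zfyve9, which brings SMAD2 to the receptor, was at -0.01 and Smurf1, which marks pathway proteins for degradation, at 0.10.

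Of 7 activin-related ligands and antagonists tested, Fst was called. Fst encodes follistatin, the extracellular antagonist of activin, and had 14 and 21 counts in FDM 1 and FDM 3 and 27, 39 and 31 counts in Control 1, 2 and 3. This was 0.323 and 0.437 CPM against 0.676, 0.684 and 0.653 CPM, so the control libraries lay close together and above both FDM libraries. The study reported lower Fst in its combined mouse data, which included these libraries, so its direction here is not independent evidence. The log2 fold change was -0.81 (SE 0.27, edgeR unadjusted p = 0.0193, adjusted p = 1.0). DESeq2 gave unadjusted p = 0.102, and without FDM 1 the value was -0.62 (edgeR unadjusted p = 0.138). Fstl1, a follistatin-like secreted glycoprotein, had a log2 fold change of -0.25 and passed the unadjusted threshold with the animal as a block (-0.17, edgeR unadjusted p = 0.0370, adjusted p = 0.666) and without Control 1 (-0.38, edgeR unadjusted p = 0.00634). Inha, the inhibin alpha subunit, was at 0.10.

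Of 15 genes that TGF-beta is known to induce, Ccn2 was called, 11 had values below 0, and the median was -0.34. Ccn2 encodes connective tissue growth factor, a matricellular protein. It had 18.7 and 26.4 CPM in FDM 1 and FDM 3 and 30.7, 37.6 and 75.4 CPM in Control 1, 2 and 3. Every control lay above both FDM libraries, and Control 2 and Control 3, the libraries high in RPE markers, had the most. The log2 fold change was -1.09 (SE 0.38, edgeR unadjusted p = 0.0226) and without FDM 1 it was -0.86 (edgeR unadjusted p = 0.0965), while with the animal as a block it was -1.14 (adjusted p = 0.0146). It shrank to -0.59 without Control 3 (edgeR unadjusted p = 0.0252) and to -0.61 with the block by label number. Muscle markers were also highest in Control 3, at 56.6 CPM with none of 6 at 0, against 9.12 to 10.5 CPM in the other libraries, and the part of either tissue in the Ccn2 value was not tested. The study itself listed Ccn2 and Tgfbi from these same libraries, so that their direction here is not independent evidence. The most abundant response genes, Tsc22d1 and Pmepa1, a feedback inhibitor of the pathway, had log2 fold changes of -0.09 and 0.01. Junb is an immediate early transcription factor gene named after its values were seen. Its log2 fold change was -0.37 without a block (edgeR unadjusted p = 0.0811) and -0.55 with the animal as a block (edgeR adjusted p = 0.00661). It had 16.5 and 16.7 CPM in FDM 1 and FDM 3 and 24.0, 16.0 and 24.6 CPM in Control 1, 2 and 3. Control 2, the partner of FDM 3 by label number, thus lay below both FDM libraries.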

How the data were processed

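Retinal RNA was sequenced by the authors in 2 FDM and 3 control libraries (polyA RNA, unstranded TruSeq kit, paired-end reads). The submitters' processing notes name Trimmomatic 0.39, Salmon 1.10.1 and R 4.3.1, with mouse build GRCm38. The authors deposited estimated counts per gene, here already whole numbers, and a signal of counts normalized in DESeq2 with a factor for each gene and library. Because the library kit does not mark strand, reads of overlapping genes cannot be told apart by strand.

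The estimated counts were tested in edgeR 4.0.16 (R 4.3.3) with TMM normalization and the quasi-likelihood test, fitted once over 17432 genes (over 10 counts in 2 or more libraries) with no covariate. The threshold was the study's unadjusted p of 0.05, with Benjamini-Hochberg adjustment over all genes tested. CPM used the summed counts of the genes tested in a library times its TMM factor. Total counts per library were 40599047 to 56534931, and the CPM of 3 counts was taken from these totals. The standard error was the log2 fold change divided by the root of the F statistic. As alternatives, DESeq2 1.42.0, limma 3.58.1 (log2 of normalized counts, pseudocount 1 or 0.1), other factors and filters, a block by animal and fits without a single library were run. The fits were tested on simulated data.

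Groups came from the labels. The second FDM library is numbered 2 in the labels and 3 in the count table and the study's supplement. The animal numbers of the latter were used for pairing. Over the genes tested, deviations from the group means correlated at 0.258 for FDM 1 with Control 1. FDM 3 correlated at 0.125 with Control 3 and at 0.155 with Control 2, the pair by label number. With 2 FDM libraries, the deviations of one are the negative of the other, so these correlations are not separate evidence. This check does not settle the pairing of FDM 3. The labels give refractive errors of 0.2745 for that eye, 2.465 for Control 3 and 3.1505 for Control 2. Taken with the mean and SD of the shift that the study reported, the refractive errors fit Control 3 and not Control 2 as its partner. No libraries held the same counts (chi-square per degree of freedom at least 11.6). Whether animals shared a litter or a preparation day is not given in the sources used here.

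Named genes were all 10 members, and from each further list the genes under the threshold and the 2 with the highest mean CPM. Members and lists were chosen with earlier results of these data known. Gene models were those of GENCODE on GRCm38, and promoter sequences those of RefSeq on GRCm38.p6.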

Additional observations from a re-analysis of the deposited data

How the results depend on the processing

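Over 140 fold changes of the 10 genes under alternatives, 14 for each gene, 136 stayed on the same side of the unadjusted threshold, 4 came under it and 0 were lost. Tgfbi was under the threshold in 14 of 14 alternatives, and its adjusted p ranged from 0.214 to 1.0. The sign differed from that of the full data in 9 of the 140, for Tgfb2 (2), Tgfb3 (2), Tgfbr1 (2) and Tgfbr2 (3), never in a called value. The number of the 10 genes called was 1 in the full data, 2 with the animal as replicate block and 1 to 4 with each library left out in turn. Without Control 1, Ltbp1, Inhbb and Tgfbr3 came under the threshold, and with the block by animal, not by label number, Ltbp1 did. Where 1 FDM library remained, it was assumed to vary like the controls.

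The count of genes called depended on the processing. Against 281 in the full data it was 498 with a filter of at least 1 count, 172 in DESeq2, 1261 with the replicate block by animal, 439 with the replicate block by label number, and 146 to 946 with a library left out, 946 without Control 1. After adjustment, 0 genes became 3 in DESeq2, 54 and 128 with the blocks by animal and by label number, and 0 to 16 with a library left out. The 2 genes called among the other pathway lists became 5 with the filter of at least 1 count, 1 in DESeq2, 4 in limma with either pseudocount, 4 with the authors' factors, 13 and 8 with the replicate blocks by animal and by label number, and 0 to 14 with a library left out, 0 without FDM 1 and 14 without Control 1. The cause of these shifts was not tested. Blocked fits leave 1 residual degree of freedom. Per-length levels from the longest transcript, pairs by label number and within-animal ratios under other normalizations were added after the data had been seen. Tgfbi and Fst had 19 to 71 and 14 to 39 counts per library, which limits their precision.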
